A study of Homo sapiens with 8 samples.

Results

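The 4 libraries described here carried a circular RNA (circRNA) insert, out of 8 libraries in the study. They were DU145 transfected with the circ0003553 plasmid, DU145 with the circ0004592 plasmid, PC3 with the circ0003553 plasmid and PC3 with the circ0004592 plasmid, 1 library each. The members were taken from the sample labels, with no measured value used, and the inserts were compared with each other within a cell line. The other 4 libraries carried a negative control plasmid, 1 for each line and arm, and served here to show each circRNA library's own control. DU145 and PC3 are established human prostate cancer cell lines. The sample titles name the arm of circ0003553 after the gene RCAN3 and the arm of circ0004592 after STK3. Shared by the 8 libraries were the transfection of a plasmid, removal of ribosomal RNA, a stranded kit and sequencing in pairs. Each group is 1 library per line, no label says whether the arms or controls were separate cultures, and no group of a single line has a replicate. The p-values therefore measure the spread between these libraries, which may be technical. The question was which messages differ with the insert when line and plasmid delivery are held in common.

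A circRNA forms when the spliceosome joins the end of an exon back to an upstream exon of the same gene, which gives a closed loop without cap or tail. Some circRNAs bind microRNAs or proteins, and RNA delivered or made in excess can be sensed by antiviral receptors that switch on interferon-stimulated genes. RCAN3 encodes a regulator of calcineurin, the phosphatase that activates NFAT factors. STK3 encodes MST2, a kinase at the head of the Hippo cascade that restrains the coactivator YAP.

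Total counts lay between 33444940 and 49926342 per library. A library's floor of 3 read pairs (6 counts) corresponded to 0.118 to 0.184 CPM, the count scaled to a library of 1000000 counts. The lines matched their labels: DU145 had KRT8 (a simple epithelial keratin) between 1902 and 2536 CPM, and in PC3 the catenin gene CTNNA1 lay between 3.84 and 4.60 CPM, against 393 to 431 CPM in DU145. PTPRC, the common leukocyte marker, was at or below 0.0601 CPM in the 8 libraries. The DU145 pair of circRNA libraries stood apart in base composition. Across 14779 genes with a transcript in GENCODE, Spearman's rho between the GC percent of a gene's longest transcript and its difference between the inserts was -0.48 in DU145. It was -0.03 in PC3, and for the controls it was 0.15 in DU145 and 0.01 in PC3. These are correlations across genes, which are not replicates. In bulk RNA, a change in the number of expressing cells and a change in RNA per cell cannot be told apart.

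In both lines RCAN3 was higher with circ0003553 and STK3 higher with circ0004592. The tables hold 1 count per gene and no entry for either circle, so in the counts of RCAN3 and STK3 reads of the plasmid, of the circle and of linear messenger RNA cannot be told apart. RCAN3 lies on chromosome 1 from 24502351 to 24541040 (hg38, plus strand). In DU145 it was at 20.9 CPM in the circ0003553 control, 37.1 CPM with circ0003553, 18.3 CPM in the circ0004592 control and 20.2 CPM with circ0004592. In PC3 the values in the same order were 33.2, 44.0, 29.5 and 23.3 CPM. The circ0003553 libraries were the highest of the 4 in each line, and in PC3 the circ0004592 library was also the lowest. RCAN3 was thus 1.78 times its own control in DU145 and 1.33 times in PC3 with circ0003553, beside 1.10 and 0.792 times with circ0004592. The ratio of circ0003553 to circ0004592 was 1.84 in DU145 (95% interval 1.62 to 2.09, Clopper-Pearson on read pairs, counting error alone) and 1.89 in PC3 (1.67 to 2.14). Between the controls of the same arms it was 1.14 and 1.13.

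STK3 lies on chromosome 8 from 98401403 to 98942827 (hg38, minus strand). In DU145 it was at 28.8 CPM in the circ0003553 control, 24.9 CPM with circ0003553, 26.1 CPM in the circ0004592 control and 34.1 CPM with circ0004592. PC3 had less of it, 7.70, 9.41, 9.12 and 19.3 CPM in the same order. With circ0004592 STK3 was 1.30 times its own control in DU145 and 2.11 times in PC3, while with circ0003553 it was 0.864 and 1.22 times. The circ0004592 library was the highest of its line in both, by a small margin in DU145. The ratio of circ0004592 to circ0003553 was 1.37 in DU145 (95% interval 1.22 to 1.54, Clopper-Pearson) and 2.04 in PC3 (1.68 to 2.48), against 0.908 and 1.19 between the controls.

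**Figure D1:**
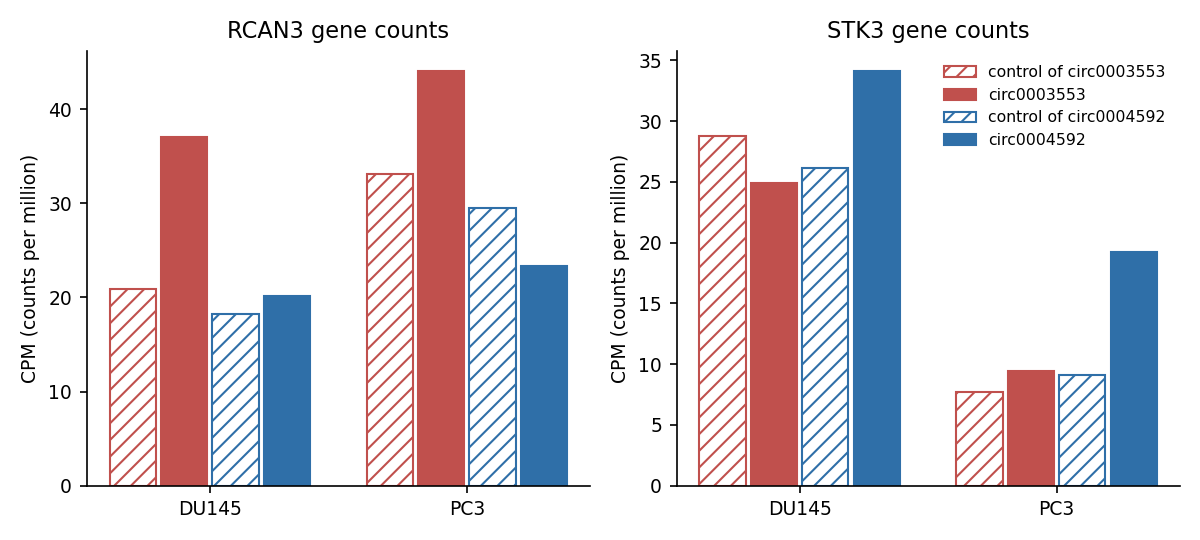
RCAN3 (left) and STK3 (right) in CPM in the 8 libraries, 1 bar per library, hatched for the control plasmid of each arm and filled for the circRNA. RCAN3 reaches 37.1 CPM in DU145 and 44.0 CPM in PC3 with circ0003553, and STK3 reaches 34.1 and 19.3 CPM with circ0004592.

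Paired by cell line, edgeR's quasi-likelihood test on the 4 circRNA libraries called these genes and no other among 17297 tested (2 genes, 0.0116%, 1 in each direction or 0.00578%, Benjamini-Hochberg adjusted p under 0.05). The insert difference, the log2 level with circ0003553 minus that with circ0004592, was 0.90 ± 0.14 (SE) for RCAN3 (edgeR adjusted p = 3.03e-06). For STK3 it was -0.72 ± 0.14 (edgeR adjusted p = 0.00566). This fit left 1 residual degree of freedom, and its spread was in effect pooled over all genes. The SE and p-value therefore do not measure how well the lines agreed in a single gene. Within the lines STK3 had -0.45 in DU145 and -1.03 in PC3. At an unadjusted p under 0.05 stood 367 genes. DESeq2 called 1 gene, RCAN3, and limma on RPKM called 0 (878 at an unadjusted p under 0.05). The STK3 call was lost with DESeq2 size factors (edgeR adjusted p = 0.173) and with a filter of 5 CPM (0.243), and over all alternatives its adjusted p ran from 9.48e-08 to 1. With the control plasmid library of the same line and arm subtracted from each, 0 of 17877 genes passed (0%; 50 at an unadjusted p under 0.05, DESeq2 0, limma 0). There RCAN3 had an insert difference of 0.72 ± 0.25 and STK3 of -0.69 ± 0.30 (edgeR adjusted p = 1 for each). The paired test between the 4 controls, which carry no insert, called 3 of 17282 genes (0.0174%; 546 at an unadjusted p under 0.05), none of which was RCAN3 or STK3. They were the clone-named CH507-513H4.5, the pseudogene KRT87P and the nuclear noncoding RNA MALAT1, lower in the circ0003553 arm by 0.46, 0.73 and 0.23 on the log2 scale. Within the lines KRT87P differed in sign, with 0.58 in DU145 and -0.91 in PC3. They are named here because their count was small, after their values were seen.

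Few other genes differed the same way in both lines. Among 10837 genes with at least 5 CPM in a circRNA library of each line, 37 (0.341%) had a within-line insert difference of at least 0.3 (log2) with the same sign in both lines. The controls gave 12 by the same rule (0.111%). Differences of that size with opposite signs were more frequent in the circRNA libraries, at 115 genes (1.06%). The count with opposite signs was not taken for the controls. Across all tested genes, Pearson's r between the DU145 and PC3 insert differences was -0.06, and among 6104 genes of at least 20 CPM it was -0.23, with 42.0% of genes of the same sign. Among the genes that followed RCAN3, in order of whichever line differed less, were TRAPPC13, a subunit of a vesicle tethering complex (0.49 in DU145 and 0.55 in PC3), the membrane protein gene TMEM45B (0.46 and 0.76, with controls at 0.33 and -0.16), ANKRD18A (0.45 and 0.49), the tight junction gene CLDN7 (0.49 and 0.40), ELMOD2 (0.42 and 0.37) and TROVE2, the RNA-binding autoantigen Ro60 (0.36 and 0.41). On the side of STK3 were RN7SL2 and RPIA, an enzyme of the pentose phosphate pathway (-0.41 and -0.53), OSGIN1, an oxidative stress growth inhibitor (-0.40 and -0.51), the centriole gene POC1A (-0.43 and -0.38) and the tubulin gene TUBB2B (-0.50 and -0.37). Also ranked among the genes named in this way were 4 clone-named genes, the pseudogene PKD1P5, EDIL3 and COG6. None of these genes passed the paired test, and they are given as values only. RN7SL2, an RNA of the signal recognition particle, stood first on its side with -0.65 and -0.50, but its controls differed by 0.69 and -1.09.

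**Figure D2:**
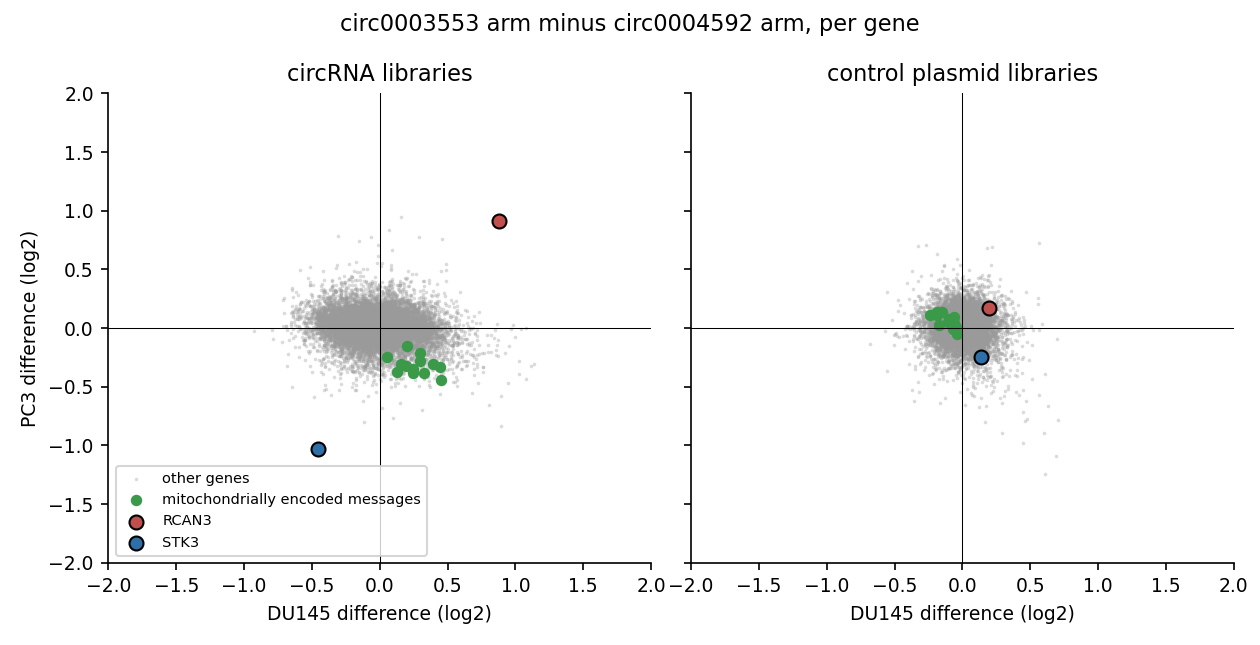
Each point is 1 of 10837 genes, with the difference between the circ0003553 and circ0004592 arms (log2 CPM, prior count 2) in DU145 on the x axis and in PC3 on the y axis, for circRNA libraries (left) and control libraries (right). RCAN3 (0.88, 0.91) lies at the upper right and STK3 (-0.45, -1.03) at the lower left of the circRNA panel, and the mitochondrially encoded messages lie to the lower right.

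Apart from RCAN3 and STK3, no gene of the calcineurin, Hippo and YAP target lists was called in PC3, while some were called in DU145. For comparison, of all 17877 genes tested within DU145, 5.53% were called higher and 8.39% lower with circ0003553. Calls in these lists are to be read beside that share. Of 13 tested calcineurin and NFAT genes, RCAN3 was the 1 member called in PC3. In DU145, RCAN3 was higher and CABIN1, a calcineurin inhibitor, lower with circ0003553 (-0.38 ± 0.10, edgeR adjusted p = 0.0152). RCAN1, a calcineurin-inducible paralog of RCAN3, had an insert difference of 0.08 ± 0.08 in DU145 and 0.03 ± 0.08 in PC3 and passed in neither. Of 16 Hippo kinases and their partners, STK3 and NF2, the scaffold upstream of the kinases, were lower with circ0003553 in DU145 (NF2 -0.29 ± 0.07, edgeR adjusted p = 0.00981), and STK3 was the 1 member called in PC3. STK4, the close paralog of STK3, had -0.06 ± 0.08 in DU145 and 0.06 ± 0.08 in PC3, and YAP1 had 0.18 ± 0.07 and -0.06 ± 0.08, with no call. Among 24 genes induced by YAP and TEAD factors, the median insert difference was -0.01 in DU145 (1 higher, 6 lower) and 0.09 in PC3 (0 called). Of these, the ectonucleotidase gene NT5E was higher with circ0003553 in DU145 (189 against 156 CPM, 0.28 ± 0.07) and CTGF, a matricellular growth factor, lower (30.4 against 38.0 CPM, -0.32 ± 0.10).

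Within PC3 the inserts gave almost the same profile. Of 17877 tested genes 20 (0.112%) passed edgeR's test, 5 higher (0.028%) and 15 lower (0.0839%) with circ0003553, and 1496 had an unadjusted p under 0.05. Within a line the spread came from the 2 controls of each line (2 residual degrees of freedom), and a circRNA library, being single, was taken to have that same spread. The 5 higher genes were RCAN3, the clone-named RP11-961A15.3, FYCO1 (an adaptor for autophagosome transport), PRRC2C (a large proline-rich protein) and MYH9 (the heavy chain of nonmuscle myosin IIA). FYCO1 was at 92.7 and 93.3 CPM in the PC3 controls, 169 CPM with circ0003553 and 133 CPM with circ0004592 (0.35 ± 0.07, edgeR adjusted p = 0.0433). It was therefore above its control with each insert, and further above with circ0003553. MYH9 was at 1922 and 1880 CPM in the controls, 2114 CPM with circ0003553 and 1733 CPM with circ0004592 (0.29 ± 0.05, edgeR adjusted p = 0.0262). Here the inserts fell on opposite sides of their controls.

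The 15 genes lower with circ0003553 in PC3 were STK3, the stress enzyme HMOX1, the nuclear noncoding RNA NEAT1, NPIPB5, the clone-named RP11-734K23.9 and 10 genes of the mitochondrial genome. HMOX1, heme oxygenase 1, was at 14.2 and 14.7 CPM in the controls, 12.7 CPM with circ0003553 and 21.7 CPM with circ0004592 (-0.77 ± 0.13, edgeR adjusted p = 0.0148). The circ0004592 library alone stood away from the rest. NEAT1, the scaffold of paraspeckles, was at 294 and 302 CPM in the controls, 330 CPM with circ0003553 and 428 CPM with circ0004592 (-0.38 ± 0.07, edgeR adjusted p = 0.0171). NPIPB5 was at 47.2 and 47.5 CPM in the controls, 47.2 CPM with circ0003553 and 64.8 CPM with circ0004592, and belongs to a family of near-identical copies whose reads may be shared. Of the 20 genes, 14 also passed in DU145. RCAN3 and STK3 had the same sign there and the other 12 had the opposite sign. DESeq2 called 42 genes in PC3 (32 higher), of which 9 were among the 20, and limma on RPKM called 0. Without 1 of the DU145 controls 13 or 10 passed (without the circ0003553 or the circ0004592 control), and without 1 of the PC3 controls 94 or 95.

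The mitochondrially encoded messages, which code for respiratory chain subunits and are transcribed as long units from the mitochondrial genome, took opposite directions in the lines. All 13 were above 0 in the DU145 insert difference (median 0.25, 9 called higher) and all 13 below 0 in PC3 (median -0.32, 9 called lower). Over all tested genes the medians were 0.00 and 0.01. The controls of the same arms differed by medians of -0.10 in DU145 and 0.05 in PC3. MT-ND3, a subunit of complex I, was at 502 and 538 CPM in the DU145 controls, 678 CPM with circ0003553 and 497 CPM with circ0004592. In PC3 it was at 837 and 792 CPM in the controls, 459 CPM with circ0003553 and 623 CPM with circ0004592. In DU145 the circ0003553 library thus lay above the rest, while in PC3 both circRNA libraries lay below their controls, that of circ0003553 further. The insert difference was 0.45 ± 0.07 in DU145 (edgeR adjusted p = 8.06e-05) and -0.44 ± 0.07 in PC3 (0.00471).

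MT-CO2, a catalytic subunit of cytochrome c oxidase, was at 1517 and 1565 CPM in the DU145 controls, 2098 CPM with circ0003553 and 1543 CPM with circ0004592. In PC3 its controls were at 1848 and 1831 CPM and its circRNA libraries at 1114 and 1399 CPM. All 13 messages passed the test of the difference between the lines, where 1439 of 17877 genes passed (8.05%), 464 of them with the DU145 difference above that of PC3 (2.6%) and the rest below (5.45%). Against the own control, the 13 messages differed by 0.23 to 0.66 (log2) with circ0003553 in DU145 and by -0.11 to 0.25 with circ0004592. In PC3 they differed by -1.01 to -0.60 with circ0003553 and by -0.64 to -0.11 with circ0004592. The mitochondrial share of all counts was 4.96% and 5.27% in the DU145 controls, 6.55% with circ0003553 and 5.50% with circ0004592. In PC3 it was 7.97% and 7.75% in the controls, 4.94% with circ0003553 and 6.08% with circ0004592. The 35 nuclear genes for respiratory chain subunits had medians of 0.01 in DU145 (4 higher, 10 lower) and -0.02 in PC3 (0 called). With GC bins equalised, an alternative chosen after the data were seen, 3 of 13 messages were called in DU145 (median 0.14) and 11 of 13 in the test between the lines.

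**Figure D3:**
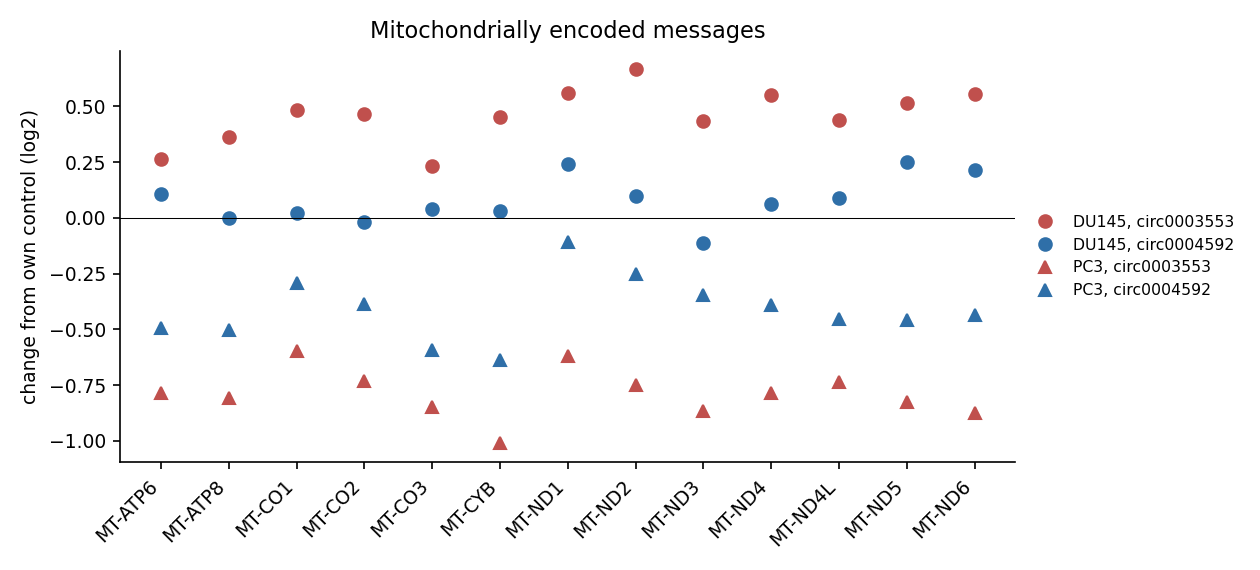
Difference of each of the 13 mitochondrially encoded messages from the own control (log2 CPM, prior count 2), by line (circle DU145, triangle PC3) and insert (red circ0003553, blue circ0004592). In DU145 the circ0003553 points lie above those of circ0004592, and in PC3 they lie below them.

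In DU145 the inserts differed in many genes by a little. EdgeR called 2488 of 17877 genes (13.9%), 989 higher (5.53%) and 1499 lower (8.39%) with circ0003553, with a median absolute log2 difference of 0.365. At least 2-fold were 81 of the higher and 15 of the lower genes. The DU145 libraries differed in depth, with 49926342 counts for circ0003553 and 33739149 for circ0004592. Spearman's rho between a gene's mean log2 CPM and its DU145 insert difference was -0.18, beside -0.04 for the DU145 controls. Whether depth bears on these counts was not tested. With DESeq2 the count was 1219 (241 higher, 978 lower), and with limma it was 0 (4725 at an unadjusted p under 0.05). Of the 989 higher genes, 816 lay on opposite sides of their own controls with the inserts, and of the 1499 lower genes 1216 did so. These genes were chosen by the difference between the inserts, so such opposite sides are a description.

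The direction moved with base composition. Called genes with a matched transcript had a median GC of 40.1% where higher and 57.0% where lower with circ0003553, against 48.2% over all tested genes. In 10 equal groups of genes by GC, the median DU145 insert difference went from 0.20 in the group with the least GC (23.1% to 38.6%) to -0.19 in the group with the most (61.3% to 85.5%). Against the own control, the circ0003553 library went from 0.09 to -0.13 and the circ0004592 library from -0.13 to 0.12 over the same groups, so each library carried a part of it. Medians between the DU145 controls went from -0.03 to 0.03. Chromosome 19, with a median GC of 58.4%, had 13 of 1274 genes higher and 218 lower, while chromosome 13, at 43.2%, had 21 of 289 higher and 4 lower. With GC bins equalised, 1013 of 14888 genes were called (215 higher, 798 lower), of which 704 were among the 2488. What set the relation with GC was not tested. The median GC of a group and its count after GC bins were equalised stand beside its result below. Counts in DU145 are to be read beside the 5.53% higher and 8.39% lower over all tested genes.

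**Figure D4:**
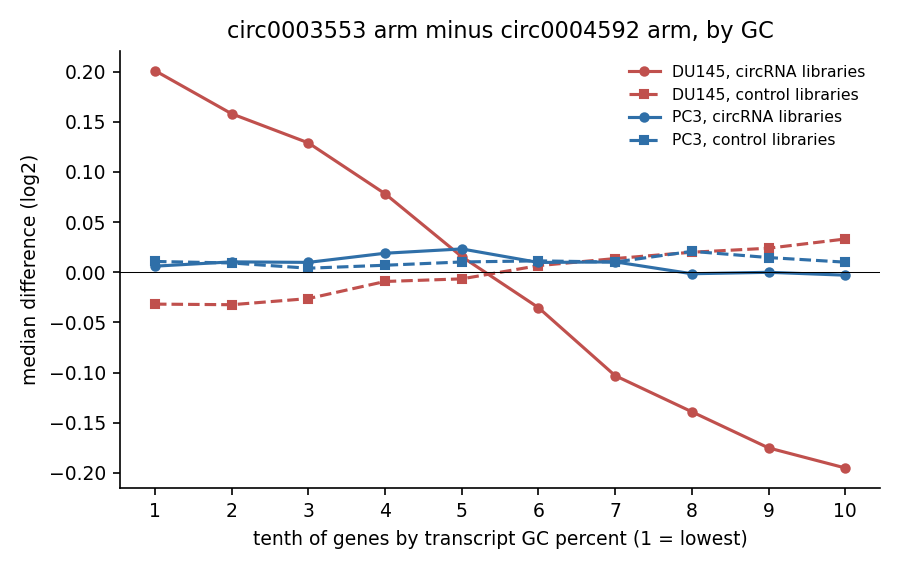
Median difference between the circ0003553 and circ0004592 arms (log2) in 10 equal groups of genes ordered by transcript GC percent, for circRNA libraries (solid) and control libraries (dashed) of DU145 (red) and PC3 (blue). The DU145 circRNA line runs from 0.20 to -0.19, and the other 3 lines stay near 0.

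Heat shock chaperones, which fold proteins and are induced together by the factor HSF1, included genes lower with circ0003553 than with circ0004592 in DU145. Of 18 tested members 9 were lower and 1, the mitochondrial chaperonin HSPD1, higher, with a median of -0.13 in DU145 and 0.03 in PC3, where 0 passed. HSPA1A, the inducible HSP70, was at 68.9 CPM in each DU145 control, 76.4 CPM with circ0003553 and 118 CPM with circ0004592 (-0.63 ± 0.07, edgeR adjusted p = 7.91e-06). Its near-identical copy HSPA1B, with which reads may be shared, was at 94.1 and 92.9 CPM in the controls, 105 CPM with circ0003553 and 155 CPM with circ0004592 (-0.56 ± 0.07). Both had their highest DU145 value with circ0004592. In PC3, HSPA1A lay between 129 and 134 CPM in the 4 libraries. The small chaperone HSPB1 took another form, with 34.2 and 32.8 CPM in the DU145 controls, 24.8 CPM with circ0003553 and 36.4 CPM with circ0004592 (-0.55 ± 0.09). FKBP4, an HSP90 cochaperone, went the same way as HSPB1 (132, 128, 115 and 166 CPM in the order of controls, circ0003553 and circ0004592). HSPA8, the constitutive HSP70, named here after its values were seen, was above both controls (756 and 788 CPM) with circ0003553 (1059 CPM) and further with circ0004592 (1286 CPM). HSF1 itself, also named after its values were seen, had 26.0 CPM with circ0003553 and 33.4 CPM with circ0004592 in DU145 (-0.36 ± 0.09, edgeR adjusted p = 0.0108). The list has a median GC of 47.6%, beside 48.2% over all genes, and after GC bins were equalised 9 of 18 were lower and 0 higher.

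HSF1 binds inverted repeats of the unit GAA, and the promoters of HSPA1A, HSPA8 and CHORDC1 are shown because each holds the repeat, while HSPA1A and HSPA8 were lower with circ0003553 in DU145 and CHORDC1 did not pass. They were chosen after their values were seen. The windows are the 250 bases before the RefSeq start (GRCh38.p14), 5′ to 3′ on the gene's strand, with every match to GAANNTTC or TTCNNGAA in capitals. Each of these motifs is its own reverse complement, so both strands were covered, and matches may overlap. They lie at chr6:31815293-31815542 (HSPA1A, plus strand), chr11:123062137-123062386 (HSPA8, minus strand) and chr11:90223050-90223299 (CHORDC1, minus strand).
HSPA1A: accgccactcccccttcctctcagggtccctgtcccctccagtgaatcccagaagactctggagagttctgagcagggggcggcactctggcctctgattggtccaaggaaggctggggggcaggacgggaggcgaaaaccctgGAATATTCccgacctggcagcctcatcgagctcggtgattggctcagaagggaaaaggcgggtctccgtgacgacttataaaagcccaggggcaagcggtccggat
HSPA8: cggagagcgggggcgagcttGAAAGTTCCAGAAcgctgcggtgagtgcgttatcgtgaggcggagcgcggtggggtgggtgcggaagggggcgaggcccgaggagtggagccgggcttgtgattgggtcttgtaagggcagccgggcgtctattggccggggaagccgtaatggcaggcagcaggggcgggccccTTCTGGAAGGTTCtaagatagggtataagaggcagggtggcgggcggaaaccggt
CHORDC1: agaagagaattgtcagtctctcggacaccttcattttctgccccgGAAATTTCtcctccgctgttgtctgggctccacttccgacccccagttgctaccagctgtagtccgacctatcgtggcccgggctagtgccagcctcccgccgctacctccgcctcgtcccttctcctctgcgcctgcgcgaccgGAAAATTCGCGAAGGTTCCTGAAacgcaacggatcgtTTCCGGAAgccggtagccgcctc
HSPA1A has 1 match, HSPA8 has 4 and CHORDC1, which encodes an HSP90-binding protein, has 6. CHORDC1 nevertheless had 70.2 CPM with circ0003553 and 69.5 CPM with circ0004592 in DU145 (0.01 ± 0.08, edgeR adjusted p = 0.941), against 64.3 and 65.0 CPM in the controls. Of 17 genes of the list with a promoter in the table, 12 (70.6%) held a match in at least 1 window, beside 14% of 27305 genes over all promoters. A match describes the sequence and shows no binding.

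Actin cytoskeleton and adhesion genes, which build stress fibres and focal contacts, were in the majority lower with circ0003553 in DU145. Of 26 tested members 16 were lower and 1, the integrin gene ITGB1, higher (median -0.28). In PC3 1 was higher, MYH9 (median 0.06). ACTN4, an actin crosslinker, was at 1104 and 1091 CPM in the DU145 controls, 858 CPM with circ0003553 and 1304 CPM with circ0004592 (-0.60 ± 0.06, edgeR adjusted p = 4.63e-06). The inserts lay on opposite sides of controls that differed little. In PC3, ACTN4 was at 572 and 533 CPM in the controls, 797 CPM with circ0003553 and 655 CPM with circ0004592, and did not pass (0.28 ± 0.06, edgeR adjusted p = 0.0779). MYH9 was at 6454 and 6328 CPM in the DU145 controls, 5432 CPM with circ0003553 and 7712 CPM with circ0004592 (-0.51 ± 0.05). Its sign was opposite in PC3, and the difference between the lines passed (edgeR adjusted p = 4.89e-06). The cytoplasmic actin gene ACTG1 (-0.53 ± 0.06), ACTN1 (-0.53 ± 0.06) and the focal adhesion gene ZYX (-0.51 ± 0.08) were lower in DU145 as well. The list has a median GC of 55.7%, and after GC bins were equalised 14 of 26 were lower and 0 higher.

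Simple keratins, the intermediate filaments of glandular epithelium, followed the same direction in DU145, with 5 of 9 tested keratin and epidermal genes lower, 0 higher and a median of -0.31. KRT8 was at 1979 and 1902 CPM in the controls, 1902 CPM with circ0003553 and 2536 CPM with circ0004592 (-0.42 ± 0.06, edgeR adjusted p = 6.62e-05). Its partner KRT18 was at 876 and 824 CPM in the controls, 829 CPM with circ0003553 and 1108 CPM with circ0004592 (-0.42 ± 0.07). The circ0003553 library stayed at the level of the controls and the circ0004592 library stood above it. PC3 had a median of 0.05 and 0 called. The median GC of these genes was 56.8%, and 3 of 9 were lower after GC bins were equalised.

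Fewer than 1 in 2 of the genes that make ribosomes or copy DNA passed as lower with circ0003553 in DU145. In ribosome biogenesis, 9 of 20 were lower and 1, the nucleolar GTPase GNL3, higher (median -0.15; PC3 0.06 with 0 called). RRP12, a factor of ribosome export, was at 181 and 185 CPM in the DU145 controls, 157 CPM with circ0003553 and 242 CPM with circ0004592 (-0.62 ± 0.07, edgeR adjusted p = 6.45e-06). Of 25 DNA replication genes 8 were lower and 0 higher (median -0.09; PC3 0.08 with 0 called). The helicase subunit MCM5 was at 192 and 198 CPM in the controls, 188 CPM with circ0003553 and 257 CPM with circ0004592 (-0.45 ± 0.07). In RRP12 the inserts lay on either side of the controls, while in MCM5 the circ0004592 library alone stood away. At median GC of 49.6% and 48.5%, 4 of 20 and 5 of 25 were lower after GC bins were equalised. Of 15 genes of NF-kB feedback 7 were lower, led by the subunit gene RELB (17.9 against 28.3 CPM, -0.66 ± 0.12), and NFKBIZ was higher (median -0.06, median GC 53.1%), with 2 lower after GC bins were equalised. Cholesterol synthesis had 5 of 23 lower, led by PMVK (40.2 against 55.7 CPM, -0.47 ± 0.09), and the desaturase SC5D higher (median -0.06, median GC 50.5%), with 2 lower after GC bins were equalised. Cytosolic ribosomal proteins had 10 of 40 lower and 3 higher (median -0.05; PC3 -0.09 with 0 called), and at a median GC of 49.4%, 9 were lower and 1 higher after GC bins were equalised.

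In the lists of this paragraph the calls were mostly toward circ0003553 in DU145, though fewer than 1 in 2 members passed. That direction was not general. Of 41 lists, 3 had higher calls only in DU145, 11 had lower calls only and 23 had both. Host genes of small nucleolar RNAs, whose spliced transcripts carry these RNAs in their introns, were higher in 6 of 13 and lower in 0 (median 0.23; PC3 -0.05 with 0 called). SNHG1 was at 56.0 and 59.1 CPM in the DU145 controls, 51.5 CPM with circ0003553 and 34.4 CPM with circ0004592 (0.58 ± 0.09, edgeR adjusted p = 0.000204). GAS5 was at 35.6 and 38.0 CPM in the controls, 51.5 CPM with circ0003553 and 33.0 CPM with circ0004592 (0.64 ± 0.10). The difference thus came from a low circ0004592 library in SNHG1 and from a high circ0003553 library in GAS5. At a median GC of 47.1%, 5 of 13 were higher and 1 lower after GC bins were equalised. Of 22 DNA repair genes 7 were higher and 0 lower (median 0.21; PC3 0.06 with 0 called), led by the damage kinase ATM (40.5, 49.1, 40.1 and 35.6 CPM in the circ0003553 control, circ0003553, the circ0004592 control and circ0004592). DESeq2 called 2 of them higher. This group has a median GC of 42.1%, and after GC bins were equalised 1 was higher and 2 lower. Of 25 mitosis genes 6 were higher and 3 lower in DU145, where 5.53% of all tested genes were higher and 8.39% lower. At a median GC of 42.6%, 1 was higher and 4 lower after GC bins were equalised. CENPE, a kinetochore motor, was higher (143 against 96.3 CPM, 0.57 ± 0.08) and CDC20, an activator of the anaphase-promoting complex, lower (55.9 against 78.8 CPM, -0.50 ± 0.09).

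**Figure D5:**
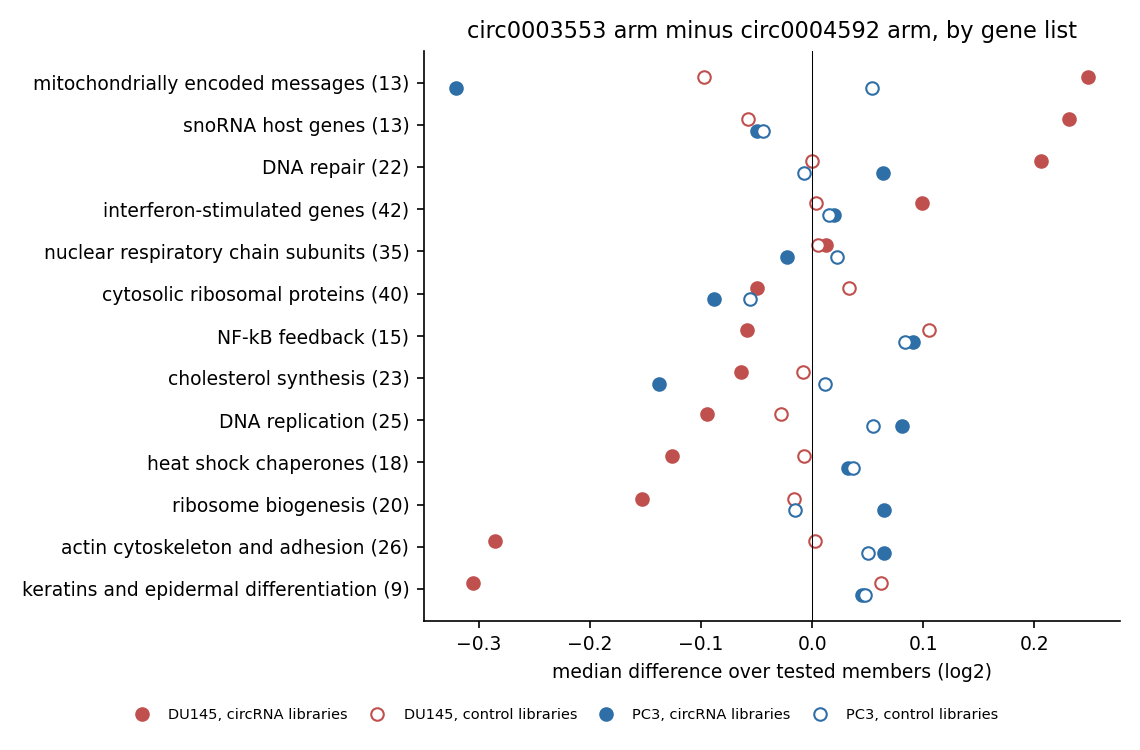
Median difference between the circ0003553 and circ0004592 arms (log2) over the tested members of 13 gene lists (number tested in brackets), for DU145 (red) and PC3 (blue), circRNA libraries filled and controls open. Mitochondrially encoded messages are at 0.25 in DU145 and -0.32 in PC3, and keratins (-0.31) and actin genes (-0.28) lie at the left in DU145.

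Of 42 interferon-stimulated genes, an antiviral program, 41 lay above their own control with circ0003553 in PC3 and 42 with circ0004592, and none passed the test between the inserts there. These genes had a median difference from the own control of 5.15 (log2) with circ0003553 and 5.05 with circ0004592 in PC3, a median insert difference of 0.02, and 0 calls. IFIT1, which binds foreign RNA, reached 991 CPM with circ0003553 and 1014 CPM with circ0004592, from 7.56 CPM in the circ0003553 control. Its insert difference in PC3 was -0.03 ± 0.06 (edgeR adjusted p = 0.940). In DU145 the same genes had medians of 0.31 and 0.12 against the own control, a median insert difference of 0.10, and 9 of 42 were higher and 3 lower with circ0003553. Over all tested genes 5.53% were higher and 8.39% lower there. Of the 42, 10 were under 1 CPM in every DU145 library and were tested because they are high in PC3, and 4 of the 9 higher calls were among these. With the DU145 libraries alone, 32 genes were tested, of which 3 were higher and 2 lower. The 4 largest, TRIM22, OAS2, XAF1 and OAS1, were below 1 CPM in each DU145 library: OAS1, which makes the activator of RNase L, had 0.470 CPM with circ0003553 and 0.123 CPM with circ0004592 there, against 547 and 536 CPM in PC3. TRIM22, a restriction factor, had 20 counts with circ0003553 and 0 with circ0004592 in DU145, 2.13-fold higher against the floor of 3 read pairs. Its DU145 controls of the same arms had 9 and 2 counts, a difference in the same direction. Members with more counts, chosen after their values were seen, went both ways in DU145. SAMD9, a restriction factor of poxviruses, was at 8.96 and 11.1 CPM in the controls, 13.4 CPM with circ0003553 and 8.17 CPM with circ0004592 (0.71 ± 0.13, edgeR adjusted p = 0.000592). ISG15, a ubiquitin-like modifier, was at 25.8 and 25.3 CPM in the controls, 31.8 CPM with circ0003553 and 41.3 CPM with circ0004592 (-0.38 ± 0.08, edgeR adjusted p = 0.00231). MX1 was lower with circ0003553 as well (41.1 against 50.7 CPM, -0.30 ± 0.07). At a median GC of 47.6%, 4 of 42 were higher and 1 lower after GC bins were equalised.

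Among single genes of at least 5 CPM in DU145, the 10 largest differences toward circ0003553 held 4 protein-coding genes, 4 processed pseudogenes and 2 clone-named genes. C8orf59, a ribosome biogenesis factor gene, was at 15.1 and 16.1 CPM in the controls, 21.3 CPM with circ0003553 and 10.4 CPM with circ0004592 (1.03 ± 0.12, edgeR adjusted p = 1.04e-05). RPS6KA6, a ribosomal S6 kinase, was at 4.75 and 4.64 CPM in the controls, 7.25 CPM with circ0003553 and 3.41 CPM with circ0004592 (1.09 ± 0.19). OXTR, the oxytocin receptor, had 8.45 CPM with circ0003553 and 4.08 CPM with circ0004592, with 5.72 and 6.31 CPM in the controls (1.05 ± 0.18). In each of these the circ0003553 library stood above both controls and the circ0004592 library below both. Since the genes were ranked by the difference between the inserts, such opposite sides are a description. CRIPT, a postsynaptic scaffold binder, had 5.19 and 2.33 CPM with the inserts (1.15 ± 0.26). Its controls, at 3.83 and 2.80 CPM, differed in the same direction by 0.44 (log2). The pseudogenes CALM2P2, EEF1A1P13, MTND4P12 and RPL23AP74 share sequence with their parent genes, and reads may have been split between them. EEF1A1P13 had 15.6 CPM with circ0003553 and 7.18 CPM with circ0004592, with controls of 11.6 and 8.28 CPM. RPL23AP74 also overlaps the clone-named RP11-264B14.2, another of the 10, so these are not separate observations.

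The 10 largest differences toward circ0004592 in DU145 were SP6, GPRC5D, SLC10A3, TMEM160, PLEKHJ1, BORCS6, DPF1, the pseudogene HNRNPLP2 and 2 clone-named genes. PLEKHJ1, a pleckstrin homology domain gene, was at 89.6 and 91.0 CPM in the controls, 66.6 CPM with circ0003553 and 110 CPM with circ0004592 (-0.72 ± 0.08, edgeR adjusted p = 4.63e-06). SP6, a zinc finger factor of epithelial and tooth development, had 2.92 and 5.59 CPM with the inserts and 4.01 and 3.72 CPM in the controls (-0.94 ± 0.21). In PC3, SP6 had 10.9 and 11.1 CPM with the inserts. BORCS6, a subunit of the BORC complex that positions lysosomes, had 4.70 and 7.74 CPM with the inserts and 6.85 and 6.92 CPM in the controls (-0.72 ± 0.18). In BORCS6 the circ0003553 library lay further from its control than the circ0004592 library did. In PC3, 0 of these 10 genes passed.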

How the data were processed

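Read counts per gene for the 8 libraries were used as deposited. Per the submitters' processing notes, reads were trimmed with Trimmomatic 0.36 and counted with featureCounts of Subread 1.5.1 on hg38. Which aligner, annotation and strand setting were used, and whether molecular identifiers were counted, is not given in the sources used here. The authors' RPKM values were used for 1 alternative only, on log2(RPKM + 0.1). A label field assigns the RPKM tables by cell line, whereas titles and column names assign them by arm; titles and column names were followed. Between 64.9% and 66.1% of low counts were even, so read pairs were taken as the unit for counting intervals, which cover counting error only. The tables of the arms held 36779 genes in all; the 5511 genes in 1 table alone (at most 14 counts) were given 0 in the other.

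Genes with at least 1 CPM in at least 2 libraries were tested with edgeR 4.0.16 (quasi-likelihood, TMM factors from 0.967 to 1.02, Benjamini-Hochberg, threshold 0.05) in R 4.3.3. Libraries of the same cell line were paired, since the line is shared. Within-line tests used 6 groups, the controls of a line being 1 group. CPM are scaled by TMM, and differences without a test used a prior count of 2. DESeq2 1.42.0, limma 3.58.1, other filters, scalings and leaving out controls were alternatives; equalising 20 GC bins and counting read pairs were chosen after the data were seen. The code was tested on simulated data.

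Named genes were the 10 largest in each direction per comparison with at least 5 CPM (5 per direction for the difference between lines), and up to 4 called members of a list. Where too few passed over both lines, places were filled by the smaller of the within-line differences, as values. The libraries and lists were chosen with earlier results of these data known.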

Additional observations from a re-analysis of the deposited data

Results flagged for a closer look

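The insert difference itself differed between DU145 and PC3 in 1439 genes by edgeR's interaction test. The 13 mitochondrially encoded messages were among them, each with a DU145 minus PC3 difference above 0 (log2). Among the subunits of complex I it was 0.50 for MT-ND1, 0.71 for MT-ND2, 0.89 for MT-ND3, 0.58 for MT-ND4, 0.35 for MT-ND4L, 0.52 for MT-ND5 and 0.63 for MT-ND6. For the cytochrome oxidase subunits it was 0.70 for MT-CO1, 0.77 for MT-CO2 and 0.46 for MT-CO3. It was 0.30 for MT-ATP6, 0.51 for MT-ATP8 and 0.59 for MT-CYB.

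The 5 largest fitted differences in each direction came from genes with few counts in 1 line. The fitted values were 6.90 for TRIM22, 6.82 for EFEMP1, 6.49 for AQP3, 6.38 for SLC22A18AS and 2.95 for TTLL6, and -7.43 for ZNF365, -6.58 for MMP16, -2.37 for AC007362.3, -2.08 for TWIST2 and -1.55 for RASL11A. In 6 of these genes a circRNA library had 0 counts, so the fitted value depends on the prior count and is no bound. Against a floor of 3 read pairs, ZNF365 in DU145 was 4.7-fold lower with circ0003553 and MMP16 1.83-fold lower, while TRIM22 was 2.13-fold higher. These ratios leave out the counting error of the other library, so they are no bounds either. The DU145 controls of the circ0003553 and circ0004592 arms had 2 and 14 counts for ZNF365, 2 and 0 for MMP16, and 9 and 2 for TRIM22. In ZNF365 and TRIM22 the controls thus differed in the same direction as the inserts. In PC3, by the same measure, EFEMP1 was 1.65-fold lower and SLC22A18AS 1.32-fold lower with circ0003553. These rest on 10 and 8 counts with circ0004592, and neither gene was called in PC3. AQP3 in PC3 lay at or under the floor with both inserts.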

How the results depend on the processing

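The paired test over both lines (2 genes) gave 1 with DESeq2 size factors, 1 with DESeq2, 1 with a filter of 5 CPM, 0 with limma and 0 with no replicate block, where the lines' own difference enters the spread. The test against own controls stayed at 0. DU145 (2488 genes) gave 1219 with DESeq2, 0 with limma and 1013 with GC bins equalised, and 1871 to 3140 without 1 control. PC3 (20 genes) gave 42 with DESeq2, 60 with no filter, 11 with a filter of 5 CPM, 0 with limma, 34 with read pairs and 38 with the libraries of the line alone, and 10 to 95 without 1 control. With DESeq2 size factors 40% of the PC3 calls were higher, against 25%. The difference between lines (1439 genes) gave 816 with DESeq2, 0 with limma, 807 with GC bins equalised and 959 to 2082 without 1 control. The controls (3 genes) gave 1 with DESeq2 size factors, 1 with DESeq2, 1 with a filter of 5 CPM, 0 with limma and 0 with no replicate block. Limma called none in any of these. CLK1 in DU145 turned from 0.26 to -0.009279 with GC bins equalised. The other causes were not tested. With 1 library per insert and line, and a spread taken from the controls, variation between transfections with the same insert was not measured.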

Other observations

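Processed pseudogenes, copies of spliced messages, were tested in 348 cases. In DU145 39 of them were higher and 1 lower with circ0003553, with a median insert difference of 0.39, and their median GC was 47.3%. In PC3 the median was -0.06. The 13123 protein-coding genes had a median of 0.00 in DU145, with 824 higher and 1292 lower, at a median GC of 48.3%. Reads of pseudogenes and their parent genes may have been shared, and the aligner's handling of such reads is not given in the sources used here.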
